A study of Mus musculus with 40 samples.

Results

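The comparison described here is between livers of female mouse fetuses whose dams ate a low-fat control diet with supplemental or ordinary folic acid. Its members were named by library: CDF_F replicates 1 to 4 (10% kcal fat, 10 mg/kg diet folic acid) and CD_F replicates 1, 2, 3 and 5 (10% kcal fat, 2 mg/kg diet folic acid), 8 of the 40 libraries of the series. The remaining female libraries of these diets, CD_F replicate 4 and CDF_F replicate 5, were left out because lung message stood in them in place of liver message. All fetuses were C57BL/6 and were collected on gestational day 18.5, and the dams had been on their diet for 13 weeks before breeding and stayed on it through pregnancy. The series has 8 groups of 5 libraries, also covering male fetuses (CD_M and CDF_M) and dams on a 45% kcal fat western diet (WD_F, WDF_F, WD_M and WDF_M). Poly(A) RNA was sequenced as directional pairs of 43-nt reads, 1 library per fetus. The labels name no dam or litter, so the p-values below measure the spread between fetuses and cannot separate it from the spread between litters.

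Folic acid is the synthetic form of folate. In its reduced form it carries one-carbon units for thymidylate and purine synthesis and, through methionine, for methylation. The liver takes up and stores much of the body's folate. Late in gestation the fetal liver is also a blood-forming organ, so hepatocyte, red-cell precursor and macrophage messages are all abundant in it. In bulk tissue, fewer cells of a type and less message per cell cannot be told apart.

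The authors' deposited table of this comparison lists 18799 genes and calls 4 at an adjusted p under 0.05, 0.0216% of the 18559 genes with an adjusted p. All 4 were higher at 10 mg/kg folic acid. They are Fabp2, an intracellular fatty acid carrier of the small intestine; Apoa4, an apolipoprotein of chylomicrons made in the intestine and, in mice, the liver; Prap1, a secreted proline-rich protein of gut epithelium; and Dysf, dysferlin, a membrane repair protein best known from skeletal muscle. The 3 genes known from gut epithelium are shown by the 250 bases before their RefSeq start sites (GRCm38.p6), since they lie on different chromosomes and stood higher together. Each has 1 window in the RefSeq table: chr3:122894822-122895071 for Fabp2, chr9:46240594-46240843 for Apoa4 and chr7:140093146-140093395 for Prap1, all on the plus strand. Capitals mark a match to AGGTCA, a core recognised by nuclear receptors, or to CAAAGTNCA, a core of sites bound by the hepatic and intestinal regulator HNF4; both strands were searched.
Fabp2: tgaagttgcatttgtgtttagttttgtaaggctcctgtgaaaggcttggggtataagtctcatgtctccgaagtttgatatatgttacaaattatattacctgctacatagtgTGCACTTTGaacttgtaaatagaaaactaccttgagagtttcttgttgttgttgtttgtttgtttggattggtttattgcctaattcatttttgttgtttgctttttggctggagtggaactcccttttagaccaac
Apoa4: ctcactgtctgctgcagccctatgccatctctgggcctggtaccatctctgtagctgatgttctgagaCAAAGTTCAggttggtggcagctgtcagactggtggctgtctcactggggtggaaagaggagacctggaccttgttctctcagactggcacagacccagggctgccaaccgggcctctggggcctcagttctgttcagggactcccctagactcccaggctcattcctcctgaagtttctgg
Prap1: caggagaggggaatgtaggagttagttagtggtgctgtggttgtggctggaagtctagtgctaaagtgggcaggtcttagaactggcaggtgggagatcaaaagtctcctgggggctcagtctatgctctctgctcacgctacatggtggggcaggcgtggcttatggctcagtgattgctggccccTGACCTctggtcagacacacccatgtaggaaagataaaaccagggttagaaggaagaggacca
CAAAGTNCA occurred once in the Fabp2 window, on the minus strand from 137 bases before the start, and once in the Apoa4 window, on the plus strand from 182 bases before it. This motif was worded after the windows had been read, and it occurs in 1.19% of the 32851 RefSeq windows of this length. AGGTCA occurred once in the Prap1 window, on the minus strand from 63 bases before the start, and in 14% of all windows. TATAAA, the TATA box core, was in none of the 3 windows and in 12.4% of all. A match is a match of letters, not a measured site. In the GENCODE annotation the Apoa4 gene begins within its RefSeq window, at position 46240696, so the letters printed for Apoa4 reach into its annotated transcript.

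CDF_F replicate 4 stood apart from the rest. Its mean correlation with the other 7 libraries was 0.890, against 0.925 to 0.957 for the others. Genes with transcripts of up to 1941 nt had a median log2 ratio of 0.85 to the mean of the other 7 libraries there, and genes with transcripts of 4629 nt or more had -0.70. Its normalized read counts summed to 27817171, against 15769515 to 18541129 in the other 7. Message of other organs was uneven. Sftpc, surfactant protein C of lung epithelium, was at 0, 4.77, 140 and 30176 in CD_F replicates 1, 2, 3 and 5 and at 2.11, 1538, 3.38 and 24797 in CDF_F replicates 1 to 4; the libraries left out had 101239 and 67014. Myh6, the atrial myosin heavy chain, was at 2920 in CD_F replicate 5 and between 0 and 39.3 in the other 7.
Liver message was present in all 8. Alb, albumin, ranged from 658016 to 1435930 over the 8, against 7708 and 5278 in the libraries left out.

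**Figure D1:**
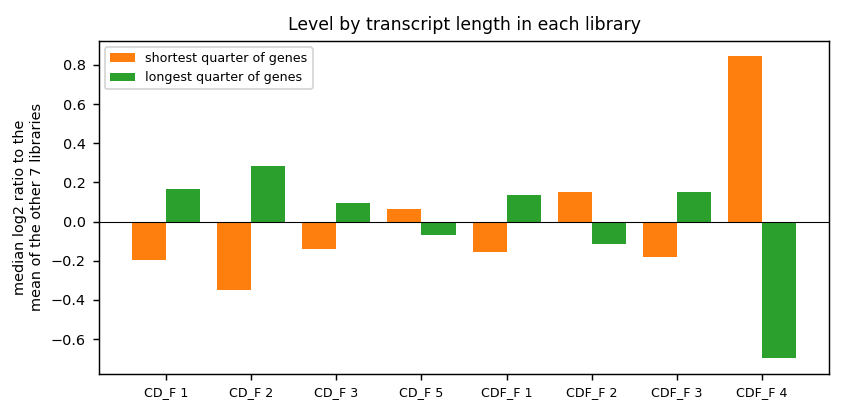
Median log2 ratio of each library to the mean of the other 7, for genes with the shortest (up to 1941 nt, orange) and the longest (4629 nt or more, green) transcripts. CDF_F replicate 4 stands at 0.85 and -0.70, and the next largest ratio in size is -0.35, for short transcripts in CD_F replicate 2.

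Across the 15598 genes tested here, limma called none at an adjusted p under 0.05, 0% of those tested; the smallest adjusted p was 0.51. At an unadjusted p under 0.05 there were 1210 genes (7.76%), 596 higher (3.82%) and 614 lower (3.94%) at 10 mg/kg, and limma-voom gave 0 called and 1205 at an unadjusted p under 0.05. The median log2 difference over all genes was -0.03, and 46.9% of genes were higher. These counts depended on CDF_F replicate 4. Without it limma called 0 and had 281 genes (1.81% of 15516) at an unadjusted p under 0.05, 101 higher (0.651%) and 180 lower (1.16%). Without CD_F replicate 5 as well there were 173. In the other direction, without CDF_F replicates 1 and 2 there were 3464. The groups of 4 did not overlap for 223 genes that were higher (1.43%) and 209 that were lower (1.34%). Shares of about this size also arise on average when groups of 4 do not differ.

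Fabp2 (chr3:122895072-122899506) was at 63, 61, 57.1 and 52.5 normalized read counts in CD_F replicates 1, 2, 3 and 5 and at 347, 146, 182 and 152 in CDF_F replicates 1 to 4. The CD_F values lay close together, every CDF_F library was above them, and CDF_F replicate 1 was the highest. The means were 58.4 ± 4.64 and 207 ± 94.9 (SD, n = 4), a ratio of 3.54. The log2 difference was 1.71 ± 0.51 (SE; limma, unadjusted p = 0.0018, adjusted p = 0.51), and it was 1.83 without CDF_F replicate 4. The authors' deposited table gives a log2 fold change of 1.69 and an adjusted p of 0.00069.

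Apoa4 (chr9:46240696-46243459) was at 83.7, 48.1, 138 and 105 in CD_F and at 1421, 575, 444 and 196 in CDF_F. The groups did not overlap, and CDF_F replicate 1 was again the highest. The means were 93.5 ± 37.5 and 659 ± 532 (SD, n = 4), a ratio of 7.05. The log2 difference was 2.55 ± 0.79 (limma, unadjusted p = 0.00263, adjusted p = 0.51). It was 3.02 without CDF_F replicate 4 and 1.74 without CDF_F replicates 1 and 2. The authors' deposited table gives 2.59 with an adjusted p of 0.00208.

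Prap1 (chr7:140093395-140097200) was close to absent in CD_F, at 0.792, 0.838, 7.85 and 2.28, and stood at 41.4, 62.9, 18.4 and 30.9 in CDF_F. The lowest CDF_F library was above the highest CD_F library, and here replicate 2 was the highest. The means were 2.94 ± 3.35 and 38.4 ± 18.8 (SD, n = 4), a ratio of 13.1. On the log2(value + 1) scale, which understates changes at such low values, the difference was 3.53 ± 1.38 (limma, unadjusted p = 0.0149, adjusted p = 0.51). The authors' deposited table gives 3.35 with an adjusted p of 0.00216.

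Dysf (chr6:84008590-84211060) was at 70.7, 66.1, 67.3 and 57.9 in CD_F and at 208, 300, 96.2 and 241 in CDF_F. All 4 CDF_F libraries were above all CD_F libraries, although replicate 3 was above them by little. The means were 65.5 ± 5.43 and 211 ± 85.7 (SD, n = 4), a ratio of 3.23. The log2 difference was 1.56 ± 0.51 (limma, unadjusted p = 0.00406, adjusted p = 0.51). The authors' deposited table gives 1.50 with an adjusted p of 0.00737. The libraries left out had 223 (CD_F replicate 4) and 148 (CDF_F replicate 5) for Dysf. Skeletal muscle message was also uneven: the 11 tested markers had a median log2 difference of 0.88, and the list summed to 118, 125, 148 and 2361 in CD_F replicates 1, 2, 3 and 5 and to 267, 266, 165 and 550 in CDF_F. Its part in the result for Dysf was not tested.

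**Figure D2:**
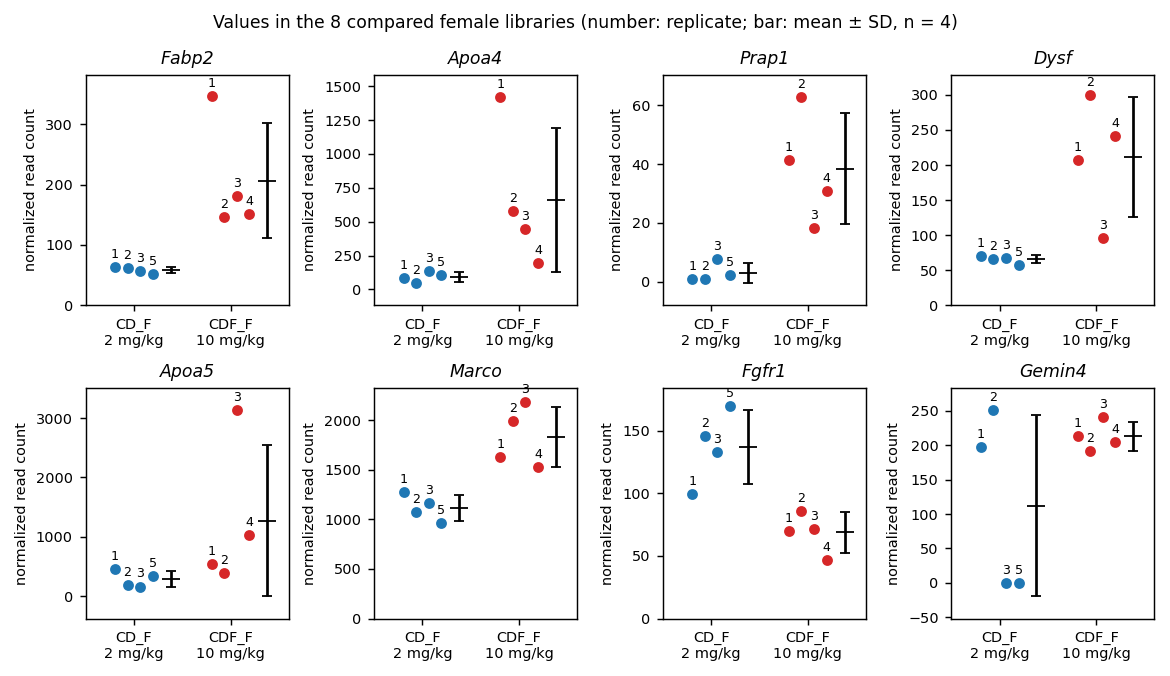
Normalized read count of 8 genes in the 8 libraries (blue, CD_F, 2 mg/kg; red, CDF_F, 10 mg/kg; the number at a point is its replicate), with the mean ± SD of each group (n = 4) in black. Fabp2, Apoa4, Prap1, Dysf and Marco are higher and Fgfr1 lower in every CDF_F library, Apoa5 overlaps, and Gemin4 is at 0 in CD_F replicates 3 and 5.

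The other groups share no samples with the 8 libraries. For Fabp2, Apoa4, Prap1 and Dysf in this order, the log2 difference, 10 mg/kg minus 2 mg/kg, was -0.04, 0.23, 0.23 and -0.43 in control diet males and -0.01, 0.12, -2.11 and -0.32 in western diet females. In western diet males it was -0.71, -0.85, -1.93 and 1.18. Fabp2 was at 75.6 ± 32.6 in CD_M and 84.9 ± 52.9 in CDF_M, and at 64.3 ± 37.4 in WD_F and 59 ± 17.4 in WDF_F (SD, n = 5 each). Apoa4 was at 115 ± 75.2 and 153 ± 138 in CD_M and CDF_M and at 83.8 ± 75.2 and 77.5 ± 41.4 in WD_F and WDF_F. Prap1 varied widely there: 29.6 ± 40.5 and 36.2 ± 62.3 in the males, and 111 ± 236 and 5.23 ± 9.07 in western diet females.
Dysf was at 175 ± 208 in CD_M and 96.6 ± 60.3 in CDF_M, and at 169 ± 87.6 in WD_F and 140 ± 83.7 in WDF_F. The low and even Dysf level of the 4 CD_F libraries was thus below the mean of each of these groups. The difference between the folic acid effects of females and males on the control diet was 1.76 ± 0.68 for Fabp2, 2.32 ± 1.06 for Apoa4, 3.30 ± 1.85 for Prap1 and 1.99 ± 0.68 for Dysf (log2 ± SE). The difference between the effects in control diet and western diet females was 1.72 ± 0.68, 2.43 ± 1.06, 5.63 ± 1.85 and 1.88 ± 0.68 in the same order. None passed limma's adjusted threshold (adjusted p = 0.433 for each against males and 0.37 for each against the western diet), so a difference of effects between the sexes or diets was not established for these genes.

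Over all genes, limma called 0 for the difference between females and males (0%), with 1401 genes (8.98%) at an unadjusted p under 0.05 and 295 without CDF_F replicate 4 in the fit. It called 0 for control against western diet (0%), with 1996 genes (12.8%) at an unadjusted p under 0.05 and 435 without that library. limma-voom gave 0 called in both, with 1410 and 1985. The smallest p-values against males belonged to the predicted genes Gm6142 (log2 difference of effects 2.66 ± 0.60) and Gm5605, Selplg, a selectin ligand of white blood cells (0.73 ± 0.21), and the stathmin Stmn4 on the higher side. On the lower side they were Trub1, a pseudouridine synthase (-1.03 ± 0.26), the nuclear pore gene Nup155 (-0.98 ± 0.26), Gm6501 and Gm44751.
Selplg was at 212, 209, 179 and 150 in CD_F and 229, 249, 237 and 311 in CDF_F, but at 269 ± 41.7 in CD_M and 220 ± 21.1 in CDF_M. Against the western diet the leading genes were Selplg (0.84 ± 0.21), Gm6142, the pseudogene Dnajc19-ps and B4galt7 on the higher side. On the lower side were Per3, a clock gene, Ago3, an Argonaute protein (-1.57 ± 0.41), the transcription factor Jun and the potassium channel Kcnj2 (-1.62 ± 0.43).

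Message of gut genes was uneven among the libraries. Of 15 marker genes of intestine and stomach, 10 are in the table and 6 passed the filter on low values, and 5 of those 6 were higher in CDF_F, with a median log2 difference of 1.18 against -0.03 for all genes. Fabp2 and Apoa4 belong to this list themselves. Its summed level was 1098, 763, 1040 and 753 in CD_F replicates 1, 2, 3 and 5 and 2686, 1893, 1433 and 1060 in CDF_F replicates 1 to 4. Without Fabp2 and Apoa4 the other 8 genes in the table summed to 951, 654, 846 and 596 in CD_F and to 918, 1172, 808 and 712 in CDF_F, and the groups overlapped. Alpi, the intestinal alkaline phosphatase, was at 0.749, 0, 5.36 and 1.17 in CD_F and at 61.8, 6.86, 17.8 and 0 in CDF_F, highest in the library that was highest for Fabp2 and Apoa4.
Cdx2, the intestinal master regulator, was at 5.64 in CDF_F replicate 1 and at 1.18 or less in the other 7 libraries. Sct, the gut hormone secretin, was listed at 0 in all 4 CD_F libraries and at 7.04, 10.7, 1.75 and 3.58 in CDF_F; it did not pass the filter, and the authors' deposited table gives it an adjusted p of 0.751. The part of gut-type message in the results for Fabp2, Apoa4 and Prap1 was not tested.

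Trophoblast message of the placenta showed a similar unevenness. The authors' deposited table ranks Tpbpb, a trophoblast-specific protein, next after the 4 called genes, with a log2 fold change of 4.86 and an adjusted p of 0.241. Tpbpb was at 0.89, 0, 0.816 and 1.24 in CD_F and at 17.1, 126, 1.65 and 1.52 in CDF_F, so that replicates 1 and 2 carried it. A trophoblast list made after this was seen holds 28 genes, of which 15 are in the table and 7 passed the filter. All 7 were higher in CDF_F, a description only since the list followed the observation. Summed over the list the level was 10.6 to 60.8 in CD_F and 249, 1813, 24.2 and 16.6 in CDF_F replicates 1 to 4.
Tpbpa was at 46 and 360 and the pregnancy glycoprotein Psg21 at 27.1 and 266 in CDF_F replicates 1 and 2, against 8.47 or less and 6.93 or less in every other compared library. Without these replicates the log2 difference was -0.16 for Tpbpa, 1.50 for Fabp2, 1.74 for Apoa4, 2.99 for Prap1 and 1.21 for Dysf.

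**Figure D3:**
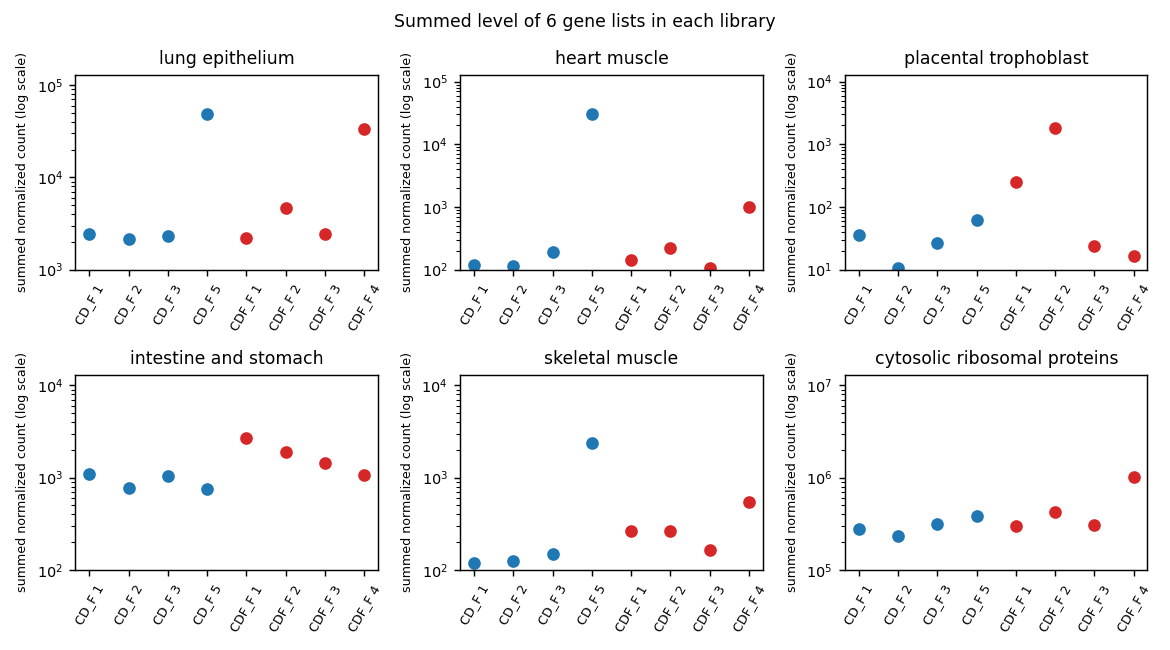
Summed normalized read count of 6 gene lists in each library, on log axes (blue, CD_F; red, CDF_F). Lung message is high in CD_F replicate 5 and CDF_F replicate 4, heart message in CD_F replicate 5, trophoblast message in CDF_F replicates 1 and 2, and ribosomal protein message in CDF_F replicate 4.

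The sums of the lung and heart lists were uneven among the libraries. The 18 lung epithelium markers summed to between 2150 and 2437 in CD_F replicates 1 to 3 and CDF_F replicates 1 and 3, 4679 in CDF_F replicate 2, 33598 in CDF_F replicate 4 and 48753 in CD_F replicate 5. Their median log2 difference was 0.26, and it was -0.89 without CDF_F replicate 4. Without CD_F replicate 5 as well the lung median was 0.84, with 14 of 17 higher in CDF_F. The heart muscle markers had a median of -1.27, with 10 of 11 lower in CDF_F. Their sum was 30256 in CD_F replicate 5 and 105 to 996 in the other 7 libraries. Without both CD_F replicate 5 and CDF_F replicate 4 the heart median was 0.15.

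Apolipoproteins carry lipid in the plasma, and the Apoa4 gene lies in a cluster with Apoa1, Apoc3 and Apoa5 on chromosome 9. Apoa5, an activator of lipoprotein lipase made in the liver, was at 454, 184, 163 and 346 in CD_F and at 538, 387, 3133 and 1024 in CDF_F. The groups overlapped, and replicate 3 was far above the rest. The log2 difference was 1.78 ± 0.89 (limma, unadjusted p = 0.054, adjusted p = 0.51). In control diet males it was 1.75, and the difference of effects between the sexes was 0.04 ± 1.20. The authors' deposited table gives Apoa5 1.72 with an adjusted p of 0.771 in females. Their table for control diet males gives it 1.89 with an adjusted p of 0.0258. Apoc3, an inhibitor of lipoprotein clearance, was at 892, 413, 690 and 1395 in CD_F and 952, 1772, 1141 and 5685 in CDF_F. Its log2 difference was 1.24 ± 0.62 and 0.69 without CDF_F replicate 4.
Apoa1, the main protein of high-density lipoprotein, was at 135522, 112197, 131741 and 151605 in CD_F and 131137, 179326, 133373 and 391872 in CDF_F, a log2 difference of 0.50 ± 0.27 that was 0.15 without CDF_F replicate 4. So Apoa4 was the gene of the cluster whose groups did not overlap. Of the 18 tested genes of lipoproteins and lipases, 14 were higher, with a median of 0.31, 5 were higher at an unadjusted p under 0.05 (3.82% over all genes), and none passed the adjusted threshold. Without CDF_F replicate 4 there was 1 at an unadjusted p under 0.05. Apoc1, Apom and Apoc2 had log2 differences of 0.76 ± 0.32, 0.56 ± 0.24 and 0.75 ± 0.34. These were 0.39, 0.28 and 0.35 without CDF_F replicate 4, and the list's median was then 0.16.

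None of the 33 tested genes of folate transport and the folate cycles passed the test, and 19 were higher and 14 lower in CDF_F. In uptake and retention, the median over 8 genes was 0.04. Slc19a1, the reduced folate carrier, was at 154, 149, 147 and 132 in CD_F and 163, 113, 182 and 136 in CDF_F, a log2 difference of 0.01 ± 0.15. Slc46a1, the proton-coupled folate transporter, was at 219, 241, 233 and 240 in CD_F and 239, 276, 274 and 410 in CDF_F (0.33 ± 0.16), and the difference was 0.17 without CDF_F replicate 4.
The folate receptors Folr1 and Folr2 had differences of 0.49 ± 0.61 and 0.28 ± 0.22. Fpgs, which adds the glutamate tail that holds folate in the cell, was at 1229, 1151, 1055 and 1046 in CD_F and 1184, 1193, 1118 and 1220 in CDF_F (0.08 ± 0.13). Ggh, which removes the tail, differed by -0.03 ± 0.17, the mitochondrial carrier Slc25a32 by -0.01 ± 0.27 and the thiamine carrier Slc19a2 by -0.09 ± 0.23.

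The 13 genes of the cytosolic cycle had a median of 0.05, and 0.14 without CDF_F replicate 4. Mthfd1 (0.02 ± 0.15), Shmt1 (0.24 ± 0.15), Tyms, thymidylate synthase (0.26 ± 0.19), Mthfs (0.44 ± 0.23) and the purine enzyme Gart (0.45 ± 0.35) were at or above CD_F in their means. Aldh1l1, Ftcd and Atic differed by 0.09 ± 0.19, 0.05 ± 0.15 and -0.07 ± 0.16. Methionine synthase Mtr (-0.09 ± 0.22), its reductase Mtrr (-0.48 ± 0.26) and Mthfsd (-0.15 ± 0.22) had means below CD_F.

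The 12 mitochondrial genes had a median of -0.01. Aldh1l2 was at 136, 258, 140 and 94.6 in CD_F and 182, 84.2, 97.7 and 27.5 in CDF_F (-0.86 ± 0.45), and the difference was -0.36 without CDF_F replicate 4. Mthfd2 differed by 0.41 ± 0.22, its relative Mthfd2l by -0.40 ± 0.25 and the formyltransferase Mtfmt by 0.23 ± 0.18. Shmt2 (0.13 ± 0.16), Mthfd1l (0.02 ± 0.14), Sardh (0.19 ± 0.21) and Dmgdh (-0.12 ± 0.23) lay within 1 SE of 0 or just outside it, as did the glycine cleavage genes Gldc (-0.04 ± 0.26), Amt (-0.04 ± 0.19), Gcsh (0.16 ± 0.14) and Dld (-0.08 ± 0.19).

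**Figure D4:**
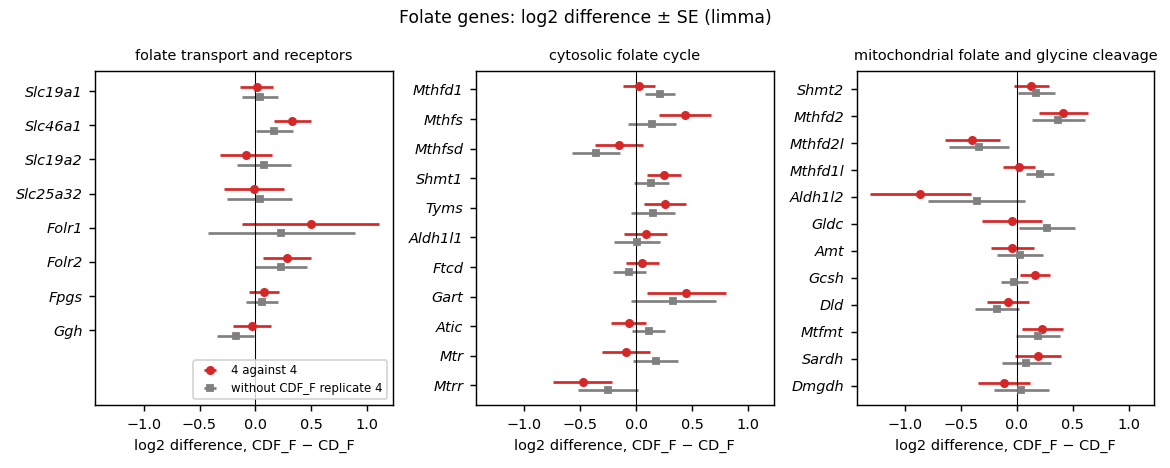
Log2 difference ± SE (limma) of folate genes, CDF_F minus CD_F, with all 8 libraries (red) and without CDF_F replicate 4 (grey). Slc46a1 stands at 0.33 with all libraries and 0.17 without that one; no gene passes the adjusted threshold.

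The pathways fed by folate showed no called gene either. In the methionine cycle 11 of 20 genes were higher, with a median of 0.02. In choline and phosphatidylcholine metabolism 10 of 12 were lower, with a median of -0.20 that was -0.02 without CDF_F replicate 4. Pemt, which makes phosphatidylcholine by methylation, was at 4993, 4079, 4538 and 6209 in CD_F and 4764, 7997, 5136 and 16487 in CDF_F; the groups overlapped. Among 18 enzymes of DNA and histone methylation 5 were higher, with a median of -0.17 and -0.03 without that library. Kmt2d and Ehmt1, histone H3 lysine methyltransferases, had differences of -0.92 ± 0.54 and -0.33 ± 0.20, and -0.18 and -0.08 without it.
Ezh2, the histone H3 lysine methyltransferase of Polycomb, was at 764, 648, 714 and 684 in CD_F and 778, 1091, 818 and 1408 in CDF_F, with no overlap between the groups (0.50 ± 0.24). Dnmt1, the maintenance DNA methyltransferase, was at 1293, 1171, 1166 and 868 in CD_F and 1140, 1680, 1359 and 1973 in CDF_F (0.44 ± 0.22). Of 20 genes of purine and pyrimidine synthesis 10 were higher, with a median of 0.01. Impdh2 and Tk1, higher by 0.32 ± 0.15 and 0.47 ± 0.23, were the 2 with an unadjusted p under 0.05 (3.82% of all genes were higher at that p), and without CDF_F replicate 4 there were 0.

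DNA replication enzymes and their loading factors copy the genome before division. Of 27 tested, 22 were higher, with a median of 0.19, and without CDF_F replicate 4, 26 were higher with a median of 0.16. The groups of 4 did not overlap, with CDF_F higher, for 3 of them (1.43% over all genes). With the red-cell list as a covariate the list's median was 0.06. Lig1, the replicative DNA ligase, was at 1279, 1003, 1057 and 1067 in CD_F and 1330, 2198, 1614 and 2634 in CDF_F (0.78 ± 0.34). Gins1 was at 237, 174, 202 and 209 in CD_F and 248, 261, 292 and 390 in CDF_F (0.52 ± 0.22), and the clamp loader Rfc3 at 250, 216, 238 and 228 against 279, 382, 303 and 815 (0.79 ± 0.32).
None of the 27 passed the adjusted threshold. Of 26 cell cycle and mitosis genes 16 were higher with all libraries (median 0.07) and 24 without CDF_F replicate 4 (median 0.20). The median was -0.08 with the red-cell list as a covariate. The red-cell list had 19 of 26 higher with a median of 0.25, and 0.26 without CDF_F replicate 4. It summed to 5452350 in CDF_F replicate 4 and to between 990491 and 2044760 in the other compared libraries. The part of red-cell message in the replication and mitosis medians was not tested. The embryonic globins Hba-x, Hbb-y and Hbb-bh1 had differences of 0.82 ± 0.42, 0.61 ± 0.42 and 0.63 ± 0.53.

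Among macrophage genes, Marco, a scavenger receptor of Kupffer cells, was at 1273, 1069, 1161 and 966 in CD_F and at 1630, 1986, 2179 and 1528 in CDF_F. The groups did not overlap, and the highest value was in replicate 3 and not in replicate 4. The means were 1117 ± 131 and 1831 ± 304 (SD, n = 4), and the log2 difference was 0.70 ± 0.23 (limma, unadjusted p = 0.00487, adjusted p = 0.51), or 0.79 without CDF_F replicate 4. In males Marco was at 1344 ± 396 in CD_M and 1924 ± 282 in CDF_M, a log2 difference of 0.55. The authors' deposited table gives 0.59 with an adjusted p of 0.473 in females.
Cd5l, a secreted macrophage protein, was at 1958, 2276, 2299 and 1724 in CD_F and 2464, 2385, 2734 and 4902 in CDF_F (0.54 ± 0.21, and 0.30 without CDF_F replicate 4). Clec4f and C1qa had differences of 0.63 ± 0.28 and 0.64 ± 0.31, and 0.30 and 0.22 without that library. Over the 16 Kupffer cell and macrophage markers, 11 were higher and 5 lower, with a median of 0.14 and 0.17 without it. Without CD_F replicate 5 as well, 8 of the 16 were higher, with a median of 0.05.

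The genes with the smallest p on the lower side were led by Fgfr1, a fibroblast growth factor receptor. It was at 99.1, 146, 133 and 169 in CD_F and at 70.2, 85.8, 71.8 and 47 in CDF_F, without overlap. The means were 137 ± 29.4 and 68.7 ± 16.1 (SD, n = 4), and the log2 difference was -0.99 ± 0.25 (limma, unadjusted p = 0.000349, adjusted p = 0.51), or -0.82 without CDF_F replicate 4. CD_F replicate 4 and CDF_F replicate 5, which were left out for their lung message, had 775 and 536. Of the 8, CD_F replicate 5 and CDF_F replicate 4 had the most lung message, and they had the highest and the lowest Fgfr1 value. Without both of these libraries the log2 difference of Fgfr1 was -0.71. The part of lung message in this result was not tested. The authors' deposited table gives -0.79 with an adjusted p of 0.751.
Col9a3, a cartilage collagen chain, was at 24.9, 16.4, 5.05 and 20 in CD_F and 4.25, 4.54, 0.584 and 2.42 in CDF_F (-2.13 ± 0.56). Prkaa2, a catalytic subunit of the energy sensor AMPK, was at 91.4, 87.1, 78.2 and 133 in CD_F and 62.9, 33.3, 62.7 and 13.1 in CDF_F, without overlap (-1.36 ± 0.42, and -0.89 without CDF_F replicate 4). Dock9, Angel1, Tbx20 and Adam19 had differences of -0.50 ± 0.14, -0.93 ± 0.25, -1.63 ± 0.47 and -1.19 ± 0.35. The pseudogene Ap3s1-ps1 and the predicted gene Gm20517 had -1.97 ± 0.56 and -2.15 ± 0.62.
In the authors' deposited table the lower side also held Sned1, Snap91, Myo18b, Mindy4 and Ppl, with adjusted p of 0.778 each. CD_F replicate 5, the library with heart message, was the highest of the 8 for each of these 5.

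On the higher side, Gemin4, a component of the complex that assembles spliceosomal particles, had the smallest p and the least even values. It was at 198 and 251 in CD_F replicates 1 and 2 and was listed at 0 in replicates 3 and 5, while the CDF_F libraries had 214, 192, 240 and 205. The log2 difference of 3.83 ± 0.97 (limma, adjusted p = 0.51) therefore came from 2 libraries at 0; the libraries left out had 209 and 234. The authors' deposited table gives an unadjusted p of 0.625. Gm17709, Rpl35a-ps2 and Anp32b-ps1, of which the last 2 are named as pseudogenes, also had small p-values. Rpl35a-ps2 was listed at 0 in all 4 CD_F libraries and in CDF_F replicate 1, and at 306, 121 and 626 in CDF_F replicates 2, 3 and 4. Reads of such copies can be shared with their parent genes, so their values are uncertain.
Usp50, also ranked high in the authors' deposited table, was at 13.3, 15.8, 13.5 and 15.1 in CD_F and at 23.1, 43.8, 32.1 and 157 in CDF_F, without overlap; its log2 difference was 1.66 ± 0.66, and 1.10 without CDF_F replicate 4.

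Hamp, hepcidin, the hormone that limits iron uptake, had one of the wider spreads. It was at 88.4, 22.7, 182 and 494 in CD_F and at 195, 397, 8435 and 618 in CDF_F. The groups overlapped, and replicate 3, the library highest for Apoa5, was far above the rest. The log2 difference was 2.76 ± 1.20 (limma, unadjusted p = 0.0281, adjusted p = 0.51), and without CDF_F replicate 3 it was 1.63. Ftl1, a ferritin chain, was higher by 0.58 ± 0.25, and by 0.33 without CDF_F replicate 4.

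Ribosomal protein and oxidative phosphorylation genes had their highest sums in CDF_F replicate 4. All 32 tested ribosomal protein genes were higher, 11 at an unadjusted p under 0.05 (3.82% over all genes) and none at the adjusted threshold, with a median of 0.53. Their sum was 278956, 233728, 310991 and 388398 in CD_F replicates 1, 2, 3 and 5 and 297902, 421655, 305446 and 1019500 in CDF_F replicates 1 to 4. Without CDF_F replicate 4 the median was 0.18, with 30 higher and 0 higher at an unadjusted p under 0.05. Of 30 nuclear genes of oxidative phosphorylation 27 were higher, with a median of 0.37, and 0.09 without that library. In control diet males and in western diet females the ribosomal list had medians of -0.16 and -0.25, and in western diet males 0.20.
The 13 genes of the mitochondrial genome had the opposite sign, with 10 lower and a median of -0.41, and -0.28 without CDF_F replicate 4. mt-Co1, a cytochrome oxidase subunit, was at 116622, 85000, 71696 and 60594 in CD_F and 79290, 84788, 43637 and 10386 in CDF_F.

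**Figure D5:**
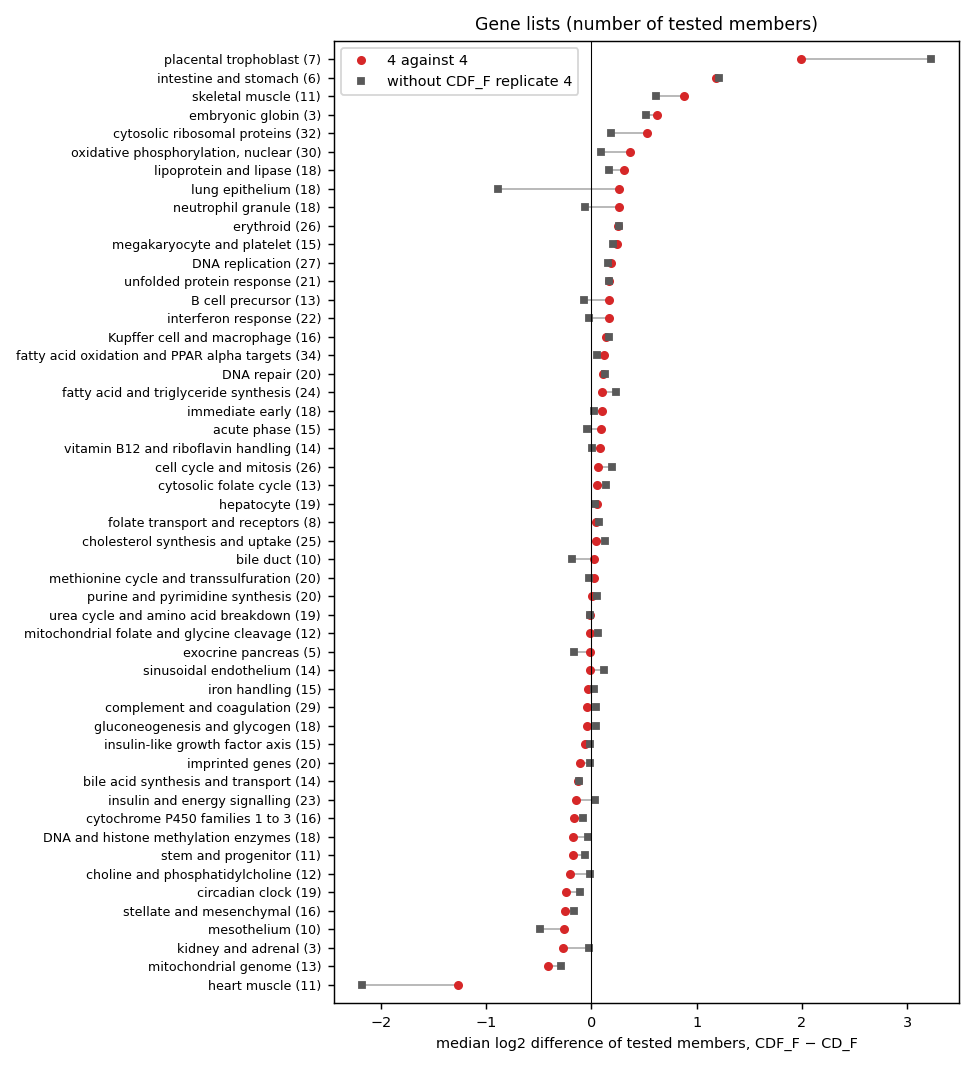
Median log2 difference, CDF_F minus CD_F, of the tested members of each gene list (number of tested members in parentheses; lists with at least 3), with all 8 libraries (red circles) and without CDF_F replicate 4 (grey squares). The ribosomal protein median moves from 0.53 to 0.18 and the lung median from 0.26 to -0.89; the fatty acid synthesis median moves from 0.10 to 0.24.

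The medians of lipid synthesis were larger when that library was left out. Of 24 genes of fatty acid and triglyceride synthesis 16 were higher with all libraries (median 0.10) and 22 without CDF_F replicate 4 (median 0.24), but without CD_F replicate 5 as well the median was 0.01. Of 25 genes of cholesterol synthesis and uptake 15 were higher (median 0.04), and 20 without CDF_F replicate 4 (median 0.13). Without CD_F replicate 5 as well, 10 of the 25 were higher and the median was -0.08. No member had an unadjusted p under 0.05 in either list. The smallest p belonged to Slc25a1, the mitochondrial citrate carrier (0.35 ± 0.22), and in sterol synthesis to Ebp (0.41 ± 0.22). Among 34 genes of fatty acid oxidation 22 were higher, with a median of 0.12. Fabp1, the liver relative of Fabp2, was at 8151, 6561, 6889 and 5866 in CD_F and 8559, 8237, 7761 and 10957 in CDF_F (0.37 ± 0.18), so it overlapped.

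Clock genes stood lower, with 15 of 19 below CD_F and a median of -0.24, or -0.11 without CDF_F replicate 4. Those with an unadjusted p under 0.05 were Per3 (-0.64 ± 0.22), Npas2 (-0.71 ± 0.25), Cry1 (-0.47 ± 0.20) and Clock (-0.49 ± 0.24), 4 of 19 against 3.94% of all genes, and without CDF_F replicate 4 there was 1 of 19. Cry1 was at 227, 373, 249 and 379 in CD_F and at 203, 192, 248 and 222 in CDF_F, and its difference was -0.49 without CDF_F replicate 4. The time of day of collection is not given in the sources used here. Among stress genes of the endoplasmic reticulum 16 of 21 were higher (median 0.17 with and without CDF_F replicate 4). Without CD_F replicate 5 as well, 15 of 21 were higher (median 0.08), and with quantile normalization of all libraries the median was -0.01. Calr, calreticulin, was at 13024, 13516, 14563 and 12093 in CD_F and 14835, 15164, 17433 and 22160 in CDF_F, without overlap (0.37 ± 0.17).

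Other lists had the following counts and medians. Hepatocyte markers had 10 of 19 higher (0.05), complement and coagulation 13 of 29 (-0.04), urea cycle and amino acid breakdown 9 of 19 (-0.01), gluconeogenesis and glycogen 8 of 18 (-0.05), the insulin-like growth factor axis 6 of 15 (-0.06) and imprinted genes 5 of 20 (-0.10). Bile acid genes had 5 of 14 higher (-0.13); Cyp7a1, the rate-limiting enzyme of bile acid synthesis, was at 1277, 1231, 802 and 533 in CD_F and 729, 513, 751 and 473 in CDF_F, with overlap (-0.58 ± 0.43). Cytochrome P450 genes had 5 of 16 higher (-0.17). Without CD_F replicate 5 and CDF_F replicate 4 the median was 0.02 for imprinted genes, -0.15 for bile acid genes and -0.17 for cytochrome P450 genes.
Among blood and wall cells, neutrophil granule genes (14 of 18 higher, 0.26) and B cell precursor genes (8 of 13, 0.17) had medians of -0.06 and -0.07 without CDF_F replicate 4. Megakaryocyte and platelet genes had 10 of 15 higher (0.24), and stem and progenitor genes 4 of 11 (-0.18). Stellate and mesenchymal genes had 5 of 16 higher (-0.25), mesothelial genes 1 of 10 (-0.26) and kidney and adrenal genes 0 of 3 (-0.27). Without CD_F replicate 5 and CDF_F replicate 4 the megakaryocyte and platelet median was 0.06 and the stem and progenitor median 0.03. The stellate and mesenchymal median was then -0.04, the mesothelial median -0.25 and the kidney and adrenal median -0.05.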

How the data were processed

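Bulk RNA-seq of fetal liver was analysed from the deposited tables. Per the submitters' processing notes the build was mm10 and the tools named, with no roles given, were DESeq2 1.24, Salmon 1.3.0, STAR 2.7.3a and Trimmomatic 0.39. The authors deposited 1 table of normalized read counts (a signal, not whole counts) for 20593 genes in 40 libraries. Single-read steps gave whole numbers, within 0.1, for only 20.4% to 28.9% of values in the 8 libraries, so reads were not recovered, sequencing depth is unknown and no count model was used. The authors also deposited a table per comparison with a mean signal, log2 fold changes, their errors (held as a score) and p-values; their log2 fold changes are close to 0 for most genes, and the reason is not given in the sources used here. Their mean signal matched the mean of the 8 libraries (the log2 ratio had an SD of 0.0525 across 14614 genes) and not that of all 10 (SD 0.503), as it would with the same 2 left out. A column named CDF_1, with no sex in its name, was read as CDF_F replicate 1, as the labels of the other columns leave it.

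Values were tested as log2(value + 1) with limma 3.58.1 in R 4.3.3 (trend and robust), over 38 libraries and all 8 groups, without CD_F replicate 4 and CDF_F replicate 5. The filter kept genes that reached 10 normalized read counts in 4 or more of the libraries. The p-values are two-sided and adjusted by Benjamini-Hochberg, with a threshold of 0.05. Differences of the folic acid effect between sexes and between fat contents came from the same fit. Named genes were the 8 smallest p-values per direction, the authors' 8 first per direction, the 4 first per direction of each difference of effects, the folate genes and up to 4 genes of each other list; a few genes under this rule are not reported here; Apoa5, Apoc3, Apoa1 and Cdx2, and the trophoblast list, were added after their values were seen. The members and the 50 gene lists (32 pathways, 18 cell types) were chosen with earlier results of these data known. The script was tested on simulated data. Of the 20593 gene IDs, 20572 were found in GENCODE (GRCm38), the source of gene coordinates and transcript lengths. Figures were drawn with matplotlib 3.10.9. Alternatives were library sets, scalings, pseudocounts of 0.5 and 5, filters, weights, limma-voom, a replicate block, covariates and each library left out.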

Additional observations from a re-analysis of the deposited data

Results flagged for a closer look

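In 58 genes named above, the highest and lowest library of each group of 4 was compared with its neighbours (116 groups), and 6 stood far apart; about 1 in 20 groups would by chance. CD_F replicate 5 was far above its group for Mindy4 (89.7, nearest other library 23.1), Myo18b (74.7, nearest 8.84) and Snap91 (60.6, nearest 10.1). CDF_F replicate 4 was far above its group for Mindy4 (18.7, nearest 8.96) and Usp50 (157, nearest 43.8). CDF_F replicate 2 was far above its group for the trophoblast gene Tpbpb (126, nearest 17.1). Many of these genes were named for small p-values.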

How the results depend on the processing

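The count of 0 genes at an adjusted p under 0.05 held in 23 of 25 alternative settings for CDF_F against CD_F. Leaving out each of the 8 libraries in turn gave 0 to 1 genes: Gemin4 passed without CD_F replicate 1 (adjusted p = 0.0335) and without CD_F replicate 2 (0.0111), and it is listed at 0 in CD_F replicates 3 and 5. The differences of effects had 0 called in all 23 (sexes) and 24 (fat contents) settings. The number of genes at an unadjusted p under 0.05 was less stable: 281 without CDF_F replicate 4, 3029 without CDF_F replicate 1, 2783 without CDF_F replicate 3, 560 without CD_F replicate 2, 322 with all 40 libraries, 387 with the 8 alone, 715 with the 18 females, 435 with the red-cell list as covariate and 485 with library weights, against 1210; leaving out CDF_F replicates 1 and 2 together, chosen after seeing the data, gave 3464. With the replicate number as a block, 0 genes were called and 156 had an unadjusted p under 0.05. In that setting CD_F replicate 5 and CDF_F replicate 4 each stood alone in a block. The difference then rested on replicates 1 to 3 of each group. Among replicates 1 to 3, deviations of same-numbered libraries correlated by 0.239, -0.162 and 0.134, and those of different numbers by -0.035 to 0.406. These few values cannot show whether the numbers pair the fetuses, and the labels name no dam or litter. Of 254 genes followed, 205 kept the sign of their difference in every setting, and of 51 lists 17 did. Fabp2 ranged from 1.43 to 2.01, Apoa4 from 1.74 to 3.23, Prap1 from 2.43 to 4.03, Dysf from 1.13 to 1.90 and Fgfr1 from -1.20 to -0.71 over the alternatives, with lowest adjusted p of 0.180, 0.248, 0.248, 0.245 and 0.121. With unknown depth, values near 0, such as those of Prap1, Sct and Tpbpb, have no counting interval.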
